A study of Rattus norvegicus with 96 samples.

Results

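The nucleus accumbens and the lateral part of the extended amygdala were compared in alcohol naive rats. The accumbens was represented by its core (NAcC) and shell (NAcSh), and the lateral extended amygdala by the central nucleus of the amygdala (CeA) and the dorsolateral bed nucleus of the stria terminalis (dlBNST). Each region was measured on 4 arrays, which gave 8 accumbens and 8 lateral extended amygdala arrays, 16 of the 96 arrays of the series, chosen by their labels alone. The series covers 8 microdissected brain regions of rats in 3 groups on an Affymetrix rat expression array. Male Wistar rats are named in the study's account of its vapor procedure, and the labels give no strain, sex or exact age. The naive rats, which never had access to alcohol, were of the same age and were killed at the same time as the others. Non-dependent rats had self-administered 10% alcohol for 4 weeks and were never in vapor, whereas dependent rats had drunk in the same way and were then exposed to intermittent ethanol vapor for 4 weeks, and all were killed 3 weeks after vapor ended. The labels name no transgene or lesion in any group. Each group was 4 rats, so regions share rats, but the labels do not state that a replicate number follows a rat, so the p-values treat arrays as separate and measure the spread between them.

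Both territories hold mainly GABAergic neurons that develop in the ganglionic eminences below the cortex, and both are often described as striatal-like. In the accumbens most neurons are medium spiny projection neurons, which carry dopamine D1 receptors with substance P and dynorphin, or dopamine D2 and adenosine receptors with enkephalin, and which signal through the phosphoprotein DARPP-32. The CeA and dlBNST receive stress and visceral input, hold many peptide neurons, including those that make corticotropin-releasing factor, and send inhibitory output to the hypothalamus and brainstem.

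All levels below are log2 GCRMA signal, on which 1 unit is a 2-fold change, and a difference is the mean of NAcC and NAcSh minus the mean of CeA and dlBNST, so that positive values are higher in the accumbens. Differences were tested with limma, and adjusted p-values (Benjamini-Hochberg) are over all 8610 genes whose mean over the 16 arrays was above 4. A gene near the floor of the scale in 1 territory could pass this filter through the other alone. A gene was called at an adjusted p of 0.05. In bulk tissue, fewer cells of a type cannot be told apart from less RNA per cell.

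The labelled regions carried their own markers, with the striatal receptor genes Adora2a and Drd1 higher on all 8 accumbens arrays and the CeA and dlBNST peptide gene Crh higher on all 8 amygdala arrays. One naive library stood apart in content. NAcSh replicate 2 had all 11 measured markers of cortical glutamatergic neurons above the other 7 accumbens arrays, 6 of them by more than 1 unit, and the mean over these markers was 6.41 there against 4.04 to 4.28 in the other NAcSh arrays. Neurod6, a cortical pyramidal neuron transcription factor, was at 9.57 there and at 3.00 to 4.11 in the other accumbens arrays, and the vesicular glutamate transporter gene Slc17a7 was at 6.96 against 3.09 to 3.51. Its best correlation with another array was 0.990, the lowest of the 16 arrays, and it is kept in the main values. Of 247 tested genes on the lists below, 14 changed their call without it, 9 being called and 5 no longer called, and these are named with their list, chosen after their values were seen. The 3′ to 5′ difference of the Gapdh control probe sets was 0.74 to 1.10 in NAcSh and 1.26 to 2.02 in the other 3 regions, and the Gapdh 3′ control level was 9.73 to 9.92 in CeA against 11.10 to 11.29 in dlBNST. The amplified RNA came from 30 or 50 ng of total RNA depending on the region, so input and region cannot be told apart here.

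A large share of the measured transcriptome differed between the territories, but mostly by little. Of 8610 genes, 1688 (19.6%) were higher in the accumbens and 2961 (34.4%) were higher in the lateral extended amygdala, together 54% of the genes tested. The counts of each gene list below stand against these shares. Of these 4649 genes, 2532 differed by less than 0.5. The accumbens held 36.3% of the calls on the values as deposited, 47.1% after quantile normalization and 51.0% after scaling each array to a common median. The median difference over all genes tested was -0.09 as deposited, and these scalings moved it by 0.07 and 0.09. Past 1 unit the calls were nearly even, at 286 genes (3.32%) higher in the accumbens and 275 (3.19%) higher in the lateral extended amygdala. A stricter set passed the threshold in the same direction in all 4 region pairs (each accumbens region against each amygdala region), with 475 genes (5.52%) higher in the accumbens and 807 (9.37%) higher in the lateral extended amygdala. Without NAcSh replicate 2 these counts were 1797, 2968, 528 and 855. With the 4 regions as the units in place of the 16 arrays, so that the spread is that between regions of a territory, limma called 86 and 80 genes. In that fit 96 of the 144 tested genes named by rule lost their call. The 144 include genes with no call to lose, such as Gad1 and Penk, and leave out other genes mentioned below. The p-values of single genes below are from the 16 arrays, so they do not measure the spread between regions of a territory. The 8 arrays of each territory did not overlap for 386 (4.48%) accumbens genes and 632 (7.34%) lateral extended amygdala genes.

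The genes of dopamine and adenosine signaling that define medium spiny neurons were far higher in the accumbens. Of the 23 tested genes of this list, 21 (91.3%, against 19.6% of all genes) were higher in the accumbens and 17 were so in all 4 region pairs, with a median difference of 1.55 against -0.09 over all genes. Adora2a, the adenosine receptor of indirect-pathway neurons, read 10.04, 9.97, 9.61 and 10.47 in NAcC, 9.18, 6.12, 8.34 and 7.52 in NAcSh, 4.71, 4.40, 4.31 and 4.36 in CeA and 4.02, 3.83, 3.52 and 4.08 in dlBNST. Every accumbens array exceeded every amygdala array, and the lowest of the accumbens arrays was NAcSh replicate 2. With a difference of 4.75 (SE 0.31, adjusted p = 6.5e-09), Adora2a had the largest difference of any gene called in all 4 pairs with arrays apart, and it was 5.03 (SE 0.20) without that replicate.

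Drd1, the dopamine D1 receptor of direct-pathway neurons, was between 9.59 and 11.64 (median 11.30) in the accumbens and between 6.42 and 7.55 (median 7.11) in the lateral extended amygdala, a difference of 3.97 (SE 0.19, adjusted p = 3.5e-10). Ppp1r1b, which encodes DARPP-32, the phosphatase inhibitor on which dopamine and glutamate signals converge, was between 8.43 and 11.41 (median 10.32) against 5.56 to 6.73 (median 6.25), a difference of 3.78 (SE 0.23, adjusted p = 3.6e-09). The groups of 8 arrays did not overlap for either gene, although both were measurable in CeA and dlBNST. Pde10a, the phosphodiesterase that clears cyclic nucleotides in medium spiny neurons, differed by 3.68 (SE 0.15), and its lowest accumbens array, at 12.09, was still well above the highest amygdala array at 9.73. Drd2, the dopamine D2 receptor, showed a smaller difference of 1.61 (SE 0.14), with accumbens arrays between 5.25 and 7.25 (median 6.56) and amygdala arrays between 4.20 and 5.33 (median 4.80) that overlapped at NAcSh replicate 2.

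Cnr1, the cannabinoid CB1 receptor, was the only called member of this list in the other direction, at -0.86 (SE 0.21), and was -1.06 (SE 0.12) without NAcSh replicate 2. The remaining members, which include the G protein subunits Gnal and Gng7, the adenylyl cyclase Adcy5 and the phosphatase Ptpn5, were higher in the accumbens by between 0.27 and 3.15, apart from the G protein regulator Rgs4, which was at -0.30 and was not called. It was called beside Cnr1 on the amygdala side without NAcSh replicate 2, at -0.58 (SE 0.13). Accumbens core and shell also differed among the genes higher in the accumbens. Of the 475 genes higher in the accumbens in all 4 pairs, 106 (22.3%) were called higher in NAcC than NAcSh and 13 (2.74%) higher in NAcSh, against 7.6% and 6.68% of all genes. The 475 genes were chosen on the same NAcC and NAcSh values. These counts include NAcSh replicate 2 and were not taken without it. Adora2a averaged 10.02 ± 0.35 (SD, n = 4) in NAcC and 7.79 ± 1.31 in NAcSh.

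**Figure D1:**
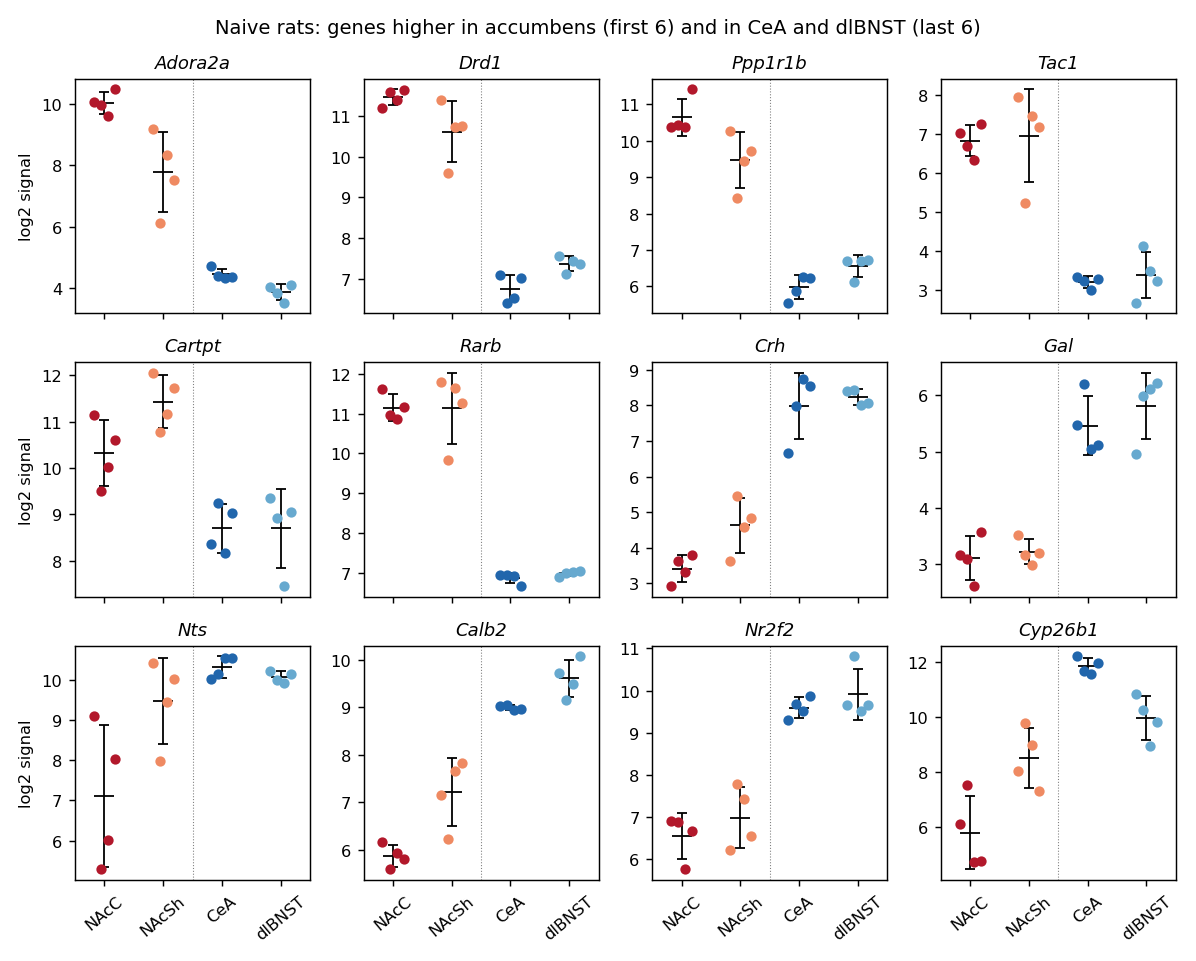
Log2 signal of 12 genes in the 4 naive arrays of each region, with each point an array and the bars the mean ± SD of 4. The first 6 genes sit higher in NAcC and NAcSh and the last 6 higher in CeA and dlBNST, and Nts and Cyp26b1 show NAcSh arrays that reach the amygdala range.

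Among the other genes with the largest accumbens excess were a transporter-like protein, an orphan receptor and a sodium channel subunit. Slc35d3, related to nucleotide sugar transporters, was between 10.01 and 11.54 (median 10.98) in the accumbens and between 3.70 and 8.45 (median 5.76) in the lateral extended amygdala across a wide range of amygdala arrays. Gpr149, an orphan receptor, was between 8.79 and 10.45 (median 9.50) against 4.43 to 5.87 (median 5.04), with the widest gap between the nearest arrays of the territories among the genes listed beside it. Pcp4l1, a small protein related to the calmodulin regulator PCP4, differed by 4.45 (SE 0.14), and Scn4b, the sodium channel beta4 subunit, by 4.21 (SE 0.19). Inhba, the activin beta-A subunit, Rasgrp1, a Ras exchange factor, Ephx4, an epoxide hydrolase family member, and Pou3f1, a POU transcription factor, were higher by 3.55, 3.21, 3.16 and 3.12. These 8 genes were picked among those called in all 4 pairs with arrays apart, so their lack of overlap is a condition of the choice.

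Among genes called in all 4 pairs with arrays apart, those highest in the lateral extended amygdala were led by Chodl, Crh and Tmem215. Chodl, a membrane lectin, was between 4.06 and 6.39 (median 4.42) in the accumbens and between 8.16 and 10.00 (median 9.31) in the lateral extended amygdala, a difference of -4.32 (SE 0.24, adjusted p = 1.3e-09). Tmem215, a transmembrane protein, differed by -3.64 (SE 0.21), Ret, the receptor tyrosine kinase of the GDNF family, by -3.33 (SE 0.29), and Mrap2, an accessory protein of melanocortin receptors, by -3.12 (SE 0.14). Mrap2 was nearly level within the lateral extended amygdala, with all 8 arrays between 9.56 and 9.95 (median 9.70). Abtb3, a BTB domain protein, Ptpro, a receptor tyrosine phosphatase, Ubash3b, a phosphatase of the Sts family, and Vwc2, a secreted inhibitor of bone morphogenetic proteins, differed by -3.08, -3.06, -2.99 and -2.90. Rwdd2a, the lysine methyltransferase gene Smyd2, the copine gene Cpne7 and the immunoglobulin-family surface protein gene Cd83 were the other genes without a list of their own among the 15 named in this direction, at -2.94, -2.84, -2.79 and -2.67. All 15 had 8 amygdala arrays above 8 accumbens arrays, which was a condition of their choice.

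**Figure D2:**
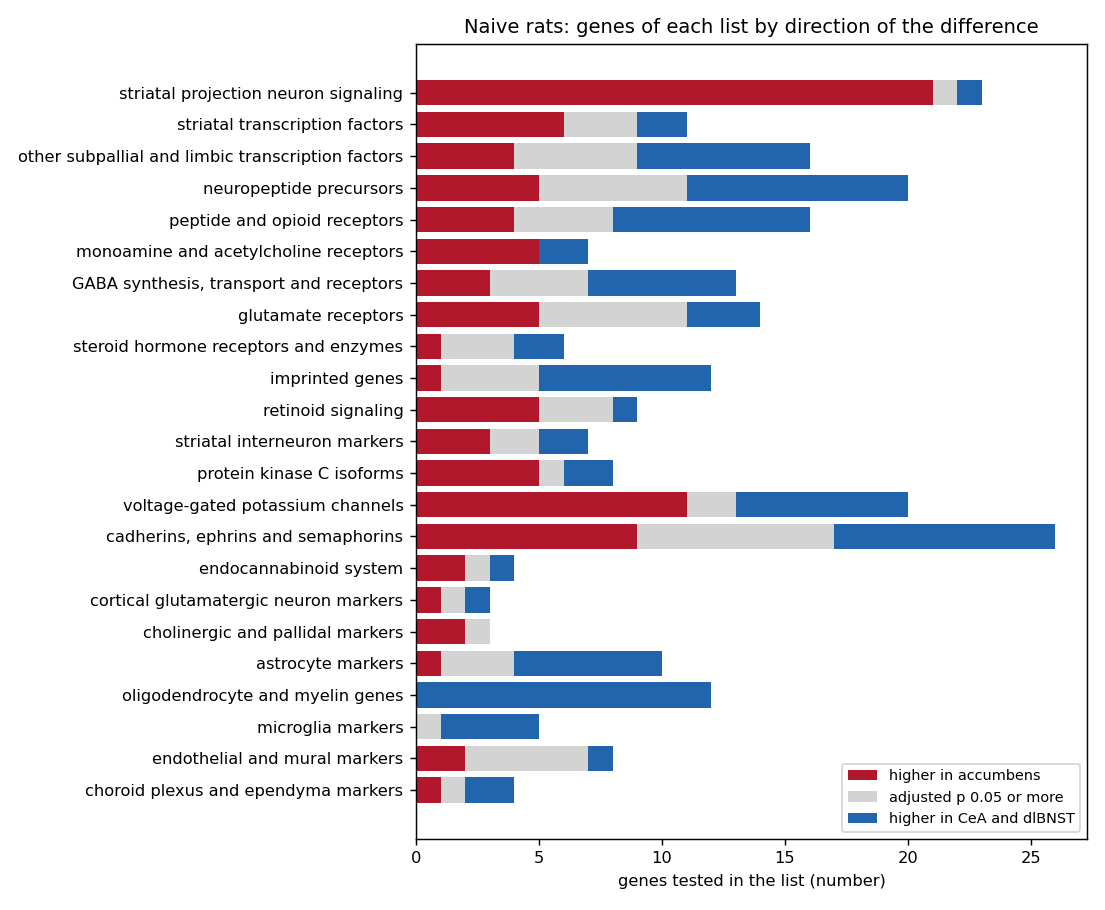
Number of tested genes in each gene list that were called higher in the accumbens, higher in CeA and dlBNST, or were not called, in naive rats. Projection neuron signaling stands out on the accumbens side with 21 of 23 genes, and the oligodendrocyte list lies wholly on the other side with 12 of 12.

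Called retinoid genes on the accumbens side included a receptor and genes of retinol supply, and the degrading enzyme was on the amygdala side. Of 9 tested genes, 5 (55.6%, against 19.6% of all genes) were higher in the accumbens, all of them in all 4 pairs, and 1 (11.1%, against 34.4%) was higher in the lateral extended amygdala. Aldh1a1, which makes retinoic acid from retinaldehyde, was at -0.57 and was not called, but without NAcSh replicate 2 it was a second called gene on the amygdala side, at -0.69 (SE 0.25). Rarb, the retinoic acid receptor beta, was between 9.83 and 11.79 (median 11.22) in the accumbens and between 6.67 and 7.05 (median 6.94) in the lateral extended amygdala, a difference of 4.21 (SE 0.22, adjusted p = 5.2e-10). The amygdala arrays lay close together, and the accumbens array nearest to them, NAcSh replicate 2, was at 9.83. Stra6, the membrane receptor for retinol-binding protein, differed by 2.61 (SE 0.16), Rbp4, retinol-binding protein itself, by 2.14 (SE 0.27), Crabp2, which carries retinoic acid to its receptors, by 1.04, and Crym, a thyroid hormone-binding protein placed on the list, by 2.32 (SE 0.10). Rdh10, which makes retinaldehyde from retinol and was named through its large difference and not through the list, was higher by 2.99 (SE 0.24).

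Cyp26b1, which degrades retinoic acid, went the other way with the widest spread of these genes. It read 6.13, 7.53, 4.74 and 4.78 in NAcC, 8.03, 9.77, 8.97 and 7.30 in NAcSh, 12.21, 11.67, 11.59 and 11.96 in CeA and 10.85, 10.27, 8.95 and 9.82 in dlBNST. The order of the region means was NAcC, NAcSh, dlBNST and CeA from low to high, and NAcSh replicates 2 and 3 overlapped dlBNST, with a difference of -3.76 (SE 0.42, adjusted p = 2.3e-06) between the territories. In the other naive regions Cyp26b1 was 12.33 ± 0.30 in the basolateral amygdala (BLA) and 6.08 ± 1.04 in the ventral bed nucleus (vBNST).

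The promoter of Rarb is shown because the gene is a known target of its own ligand. The window runs from 250 bases before to 50 bases after the RefSeq start on chr15:11336142-11336441 of GRCr8, plus strand, and the capitals mark GTTCA repeated in the same direction after 6 bases of any kind, the form of retinoic acid response element known from Rarb itself, which begins 25 bases after the start.
Rarb: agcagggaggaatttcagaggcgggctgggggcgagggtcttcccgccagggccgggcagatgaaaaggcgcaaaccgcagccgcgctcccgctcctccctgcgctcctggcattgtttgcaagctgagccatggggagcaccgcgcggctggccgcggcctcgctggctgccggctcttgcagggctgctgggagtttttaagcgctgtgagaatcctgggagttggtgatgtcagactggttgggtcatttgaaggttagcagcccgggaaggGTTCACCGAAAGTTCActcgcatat
Searched on both strands, this motif was present in 4 of the 7223 windows (0.0554%) that belong to genes tested here, and the same repeat of GGTCA was present in 3 (0.0415%). The first form was searched because it is known from Rarb, so its presence in Rarb was set by that choice. No other window held it among the 382 of genes higher in the accumbens in all 4 pairs.

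Of 11 tested striatal transcription factors, 6 (54.5%) were higher in the accumbens and 2 (18.2%) in the lateral extended amygdala, against 19.6% and 34.4% of all genes. Foxp2, a forkhead factor of striatal neurons, was between 10.26 and 11.79 (median 11.09) against 6.94 to 8.91 (median 8.23), a difference of 2.96 (SE 0.22, adjusted p = 2.6e-08), and Foxp1, its relative, differed by 2.65 (SE 0.10). Both had arrays that did not overlap. Foxo1, a forkhead factor of the insulin pathway, and Mef2c, an activity-dependent MADS box factor, were higher in the accumbens by 1.33 and 1.24. Bcl11b, which encodes the striatal factor CTIP2, differed by only 0.32, and Meis2 and Rxrg, also on the list, were at 0.19 and 0.00 and were not called, although Meis2 was called without NAcSh replicate 2, at 0.22 (SE 0.08). Ebf1 differed by -0.86 (SE 0.12) over the territories, but its NAcC mean of 7.74 was as high as dlBNST at 7.69, and only NAcSh at 5.65 was low. Meis1, a homeobox factor, was higher in the lateral extended amygdala, at -0.58 (SE 0.17).

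Of 16 other subpallial and limbic factors, 4 (25%) were higher in the accumbens and 7 (43.8%) in the lateral extended amygdala, against 19.6% and 34.4% of all genes. Nr2f2, which encodes COUP-TFII, a nuclear receptor of caudal ganglionic eminence and amygdala development, was between 5.75 and 7.77 (median 6.78) in the accumbens and between 9.29 and 10.81 (median 9.66) in the lateral extended amygdala, a difference of -2.98 (SE 0.25, adjusted p = 1e-07). Nr2f1, its close relative COUP-TFI, differed by -1.57 (SE 0.26), and the zinc finger homeobox factors Zfhx3 and Zfhx4 by -1.64 (SE 0.14) and -1.55 (SE 0.18). The arrays of Zfhx3 did not overlap, although NAcC at 10.36 ± 0.20 lay nearer the amygdala regions than NAcSh at 9.37 ± 0.53. On the accumbens side, Onecut2 was higher by 1.69 (SE 0.09), with NAcC at 6.35 and NAcSh at 4.22, whereas Tshz1, at 1.31 (SE 0.13), was higher in NAcSh (11.56) than in NAcC (10.52). Pbx3 and Etv1 were higher in the accumbens by 0.75 and 0.36, and Dlx1 and Dlx5, which specify GABAergic neurons, were at 0.02 and -0.18 and were not called.

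Among neuropeptide genes, substance P, CART and neuropeptide Y were higher in the accumbens and corticotropin-releasing factor, galanin and neurotensin higher in the lateral extended amygdala. Of 20 tested precursors and processing genes, 5 (25%) were higher in the accumbens and 9 (45%) in the lateral extended amygdala, against 19.6% and 34.4% of all genes. Cbln2, a secreted synaptic protein on this list, was a further called gene on the amygdala side without NAcSh replicate 2, at -1.28 (SE 0.14) against -0.82 with it. Crh, which encodes corticotropin-releasing factor, the peptide that starts the stress response, read 2.92, 3.62, 3.31 and 3.79 in NAcC, 3.61, 5.46, 4.58 and 4.83 in NAcSh, 6.66, 7.97, 8.74 and 8.54 in CeA and 8.42, 8.44, 8.02 and 8.07 in dlBNST. The lowest CeA array stood above every accumbens array, NAcC lay near the floor of the scale, and the difference was -4.09 (SE 0.28, adjusted p = 1.6e-08). Gal, which encodes galanin, was between 2.61 and 3.57 (median 3.17) in the accumbens and between 4.95 and 6.21 (median 5.73) in the lateral extended amygdala, a difference of -2.47 (SE 0.20, adjusted p = 9e-08), again without overlap.

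Nts, which encodes neurotensin, was between 9.90 and 10.54 (median 10.14) in the amygdala arrays, but ran in NAcC from 5.29 to 9.10 and in NAcSh from 7.98 to 10.42. The territory difference of -1.90 (SE 0.45) therefore rested mostly on NAcC, and the highest NAcSh array lay within the amygdala range. Sst, which encodes somatostatin, was between 4.10 and 5.33 (median 4.62) against 4.86 to 7.14 (median 5.44), a difference of -0.95 (SE 0.28, adjusted p = 0.010), with overlapping arrays, and the neurokinin B gene Tac3 and the secretory granule gene Chga differed by -0.88 and -1.38.

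Tac1, the substance P precursor of direct-pathway neurons, was between 5.23 and 7.95 (median 7.09) in the accumbens and between 2.68 and 4.12 (median 3.26) in the lateral extended amygdala, a difference of 3.59 (SE 0.31, adjusted p = 1.4e-07). Cartpt, the precursor of cocaine- and amphetamine-regulated transcript peptides, was between 9.51 and 12.05 (median 10.97) against 7.45 to 9.36 (median 8.97), a difference of 2.18 (SE 0.30, adjusted p = 1.8e-05), and was higher in NAcSh (11.43 ± 0.56, SD, n = 4) than in NAcC (10.32 ± 0.71). Npy, which encodes neuropeptide Y and is made by accumbens interneurons, was between 9.19 and 10.06 (median 9.54) against 7.50 to 9.09 (median 8.36), a difference of 1.31 (SE 0.16, adjusted p = 7.2e-06), and its lowest amygdala values were in CeA, at 7.93 ± 0.42 against 8.66 ± 0.33 in dlBNST. These 3 genes had arrays that did not overlap. The prohormone convertase gene Pcsk2 was higher in the accumbens by 1.06 (SE 0.18).

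Of the opioid precursors, proenkephalin did not pass the test and prodynorphin was modestly higher in the accumbens. Penk, which encodes proenkephalin, was 13.41 ± 0.16 in NAcC, 12.62 ± 0.36 in NAcSh, 13.38 ± 0.09 in CeA and 12.81 ± 0.17 in dlBNST (SD, n = 4). NAcC lay near CeA, and NAcSh lay near dlBNST at a lower level, and the territory difference of -0.08 (SE 0.11) did not pass the threshold (adjusted p = 0.56 with limma) and took a positive sign of 0.02 after median scaling. Pdyn, the prodynorphin gene, ran from 10.10 ± 0.15 in NAcC through 9.85 in NAcSh and 9.65 in CeA to 9.27 ± 0.19 in dlBNST, a difference of 0.52 (SE 0.10, adjusted p = 0.00065).

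Promoters of Cartpt and Sst are shown because both peptide genes, which lay on opposite sides of the comparison, hold the cAMP response element TGACGTCA in this window, marked in capitals. They are the RefSeq windows chr2:32991186-32991485, minus strand, and chr11:90461296-90461595, plus strand, of GRCr8, and the element begins 142 bases before the start in Cartpt and 2 bases after it in Sst.
Cartpt: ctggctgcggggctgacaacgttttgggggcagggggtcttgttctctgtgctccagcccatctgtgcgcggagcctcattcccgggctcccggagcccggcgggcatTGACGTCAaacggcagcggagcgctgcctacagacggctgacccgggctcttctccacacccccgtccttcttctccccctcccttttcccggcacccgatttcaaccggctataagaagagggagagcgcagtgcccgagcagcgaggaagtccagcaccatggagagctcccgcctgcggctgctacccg
Sst: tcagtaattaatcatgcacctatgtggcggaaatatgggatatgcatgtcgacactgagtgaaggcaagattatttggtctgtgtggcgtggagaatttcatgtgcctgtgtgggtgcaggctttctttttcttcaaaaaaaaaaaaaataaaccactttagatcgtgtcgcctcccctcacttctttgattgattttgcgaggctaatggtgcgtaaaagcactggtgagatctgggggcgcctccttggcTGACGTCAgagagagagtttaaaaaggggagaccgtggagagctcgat
The element, which reads the same on both strands, was found in 3.45% of the 7223 windows of genes tested, in 3.14% of the windows of genes higher in the accumbens in all 4 pairs and in 3.24% of those of genes higher in the lateral extended amygdala.

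Among receptors for peptides and opioids, 4 of 16 tested genes (25%) were higher in the accumbens and 8 (50%) in the lateral extended amygdala, against 19.6% and 34.4% of all genes. Oprk1, the kappa opioid receptor, was 8.20 ± 0.29 in NAcC, 8.63 ± 0.97 in NAcSh, 7.62 ± 0.11 in CeA and 6.82 ± 0.47 in dlBNST, and differed by 1.20 (SE 0.25). The mu opioid receptor gene Oprm1 was not tested, since its probe set stayed between 2.62 and 3.10 on all 16 arrays, near the floor of the scale, and Crhr1 was not analysed here. Oprl1, the nociceptin receptor, differed by -1.73 (SE 0.08), with dlBNST at 7.63 ± 0.16 well above CeA at 5.87 ± 0.17 and NAcSh at 5.72 ± 0.13. Galr1, a galanin receptor, was between 3.17 and 3.59 (median 3.27) in the accumbens and between 4.06 and 5.70 (median 4.81) in the lateral extended amygdala. Its ligand gene Gal was also higher on the amygdala side. Both genes lay below 4 on all accumbens arrays. They passed the filter on a mean above 4 only through the amygdala arrays, so no match of ligand and receptor is read from them. Npy1r, a neuropeptide Y receptor, was higher in the lateral extended amygdala (-1.09, SE 0.31) while its ligand Npy was higher in the accumbens. Tac1 and its receptor Tacr1 were both higher in the accumbens, the latter by 0.99 (SE 0.13).

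Sstr1, a somatostatin receptor, differed by -2.21 (SE 0.42) with all arrays and by -2.67 (SE 0.15) without NAcSh replicate 2, which alone read 9.31. The other named receptor genes on the accumbens side were Ramp1, the accessory protein of the CGRP receptor, at 1.81 (SE 0.13), and Vipr1, a receptor for vasoactive intestinal peptide, at 1.45 (SE 0.26).

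The genes that make GABA did not pass the test, whereas several GABA receptor genes did. Gad1, which encodes the GABA-synthesizing enzyme GAD67, lay between 13.58 and 13.99 on all 8 accumbens arrays and between 13.76 and 13.96 on the amygdala arrays. Its difference of -0.04 (SE 0.07) was not called (adjusted p = 0.64 with limma) and changed sign after quantile normalization (0.05) and median scaling (0.05). Gad2, which encodes GAD65, was 8.06 ± 0.32 in NAcC, 8.07 ± 0.75 in NAcSh, 7.69 ± 0.20 in CeA and 8.35 ± 0.37 in dlBNST, a difference of 0.04 (SE 0.21) that was not called either. Without NAcSh replicate 2, which read 6.95, Gad2 differed by 0.23 (SE 0.13). Slc32a1, the vesicular GABA transporter, was higher in the lateral extended amygdala, at -0.71 (SE 0.19), with NAcC at 10.13 close to CeA at 10.02.

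Of 13 tested GABA genes, 3 (23.1%) were higher in the accumbens and 6 (46.2%) in the lateral extended amygdala, against 19.6% and 34.4% of all genes. Gabrg1, the gamma1 subunit of the GABA-A receptor, was 7.40, 5.50, 5.04 and 6.34 in NAcC, 6.25, 5.96, 6.04 and 5.66 in NAcSh, 8.00, 7.49, 6.37 and 7.93 in CeA and 8.65, 7.76, 6.83 and 8.80 in dlBNST. One NAcC array and the lowest arrays of CeA and dlBNST overlapped, and the difference was -1.71 (SE 0.35). Gabbr2, a subunit of the GABA-B receptor, was between 9.59 and 10.21 (median 9.88) in the amygdala arrays and between 7.59 and 8.33 in the accumbens except NAcSh replicate 2, at 10.31. The difference of -1.70 (SE 0.26) became -1.98 (SE 0.09) without it. Gabbr1, the partner subunit, differed by only -0.32 (SE 0.06). Gabrd, the delta subunit of extrasynaptic receptors, was higher in the accumbens, between 4.90 and 6.38 (median 5.34) against 4.01 to 4.54 (median 4.32), a difference of 1.11 (SE 0.18, adjusted p = 8.3e-05), and Gabra2 and Gabra5 differed by 0.24 and 0.30, each a call that was lost on leaving out any of 10 of the 16 arrays (0.21 to 0.29 and 0.22 to 0.36). Without NAcSh replicate 2, Gabra5 was not called (0.22, SE 0.11) and Abat, the enzyme that breaks down GABA, was called at 0.28 (SE 0.11).

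**Figure D3:**
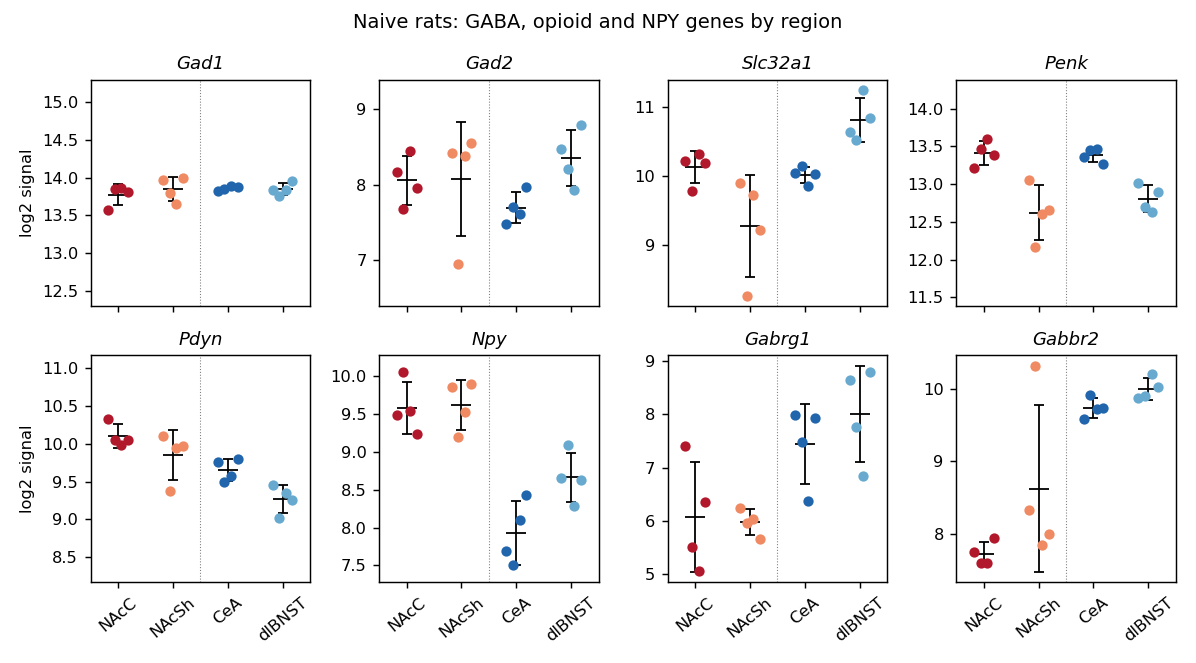
Log2 signal of 8 GABA, opioid and neuropeptide Y genes in the 4 naive arrays of each region, with each point an array and bars showing the mean ± SD of 4. Gad1 is flat across the regions, Penk pairs NAcC with CeA and NAcSh with dlBNST, and the single high NAcSh point of Gabbr2 and the single low one of Gad2 are replicate 2.

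Of 14 tested glutamate receptor genes, 5 (35.7%) were higher in the accumbens and 3 (21.4%) in the lateral extended amygdala, against 19.6% and 34.4% of all genes. Grin2a and Grin2b, the GluN2A and GluN2B subunits of the NMDA receptor, were higher by 2.16 (SE 0.22) and 1.34 (SE 0.17), and Grin3a, the GluN3A subunit, was lower, at -0.71 (SE 0.13). Grin2a was between 8.05 and 10.42 (median 8.79) in the accumbens and between 6.08 and 7.22 (median 6.79) in the lateral extended amygdala, without overlap. Grm3 and Grm4, inhibitory metabotropic receptors, were higher in the accumbens by 1.37 (SE 0.10) and 0.80 (SE 0.13), while the AMPA subunit gene Gria1 and the kainate subunit gene Grik1 differed by -0.40 (SE 0.14) and -0.69 (SE 0.19). Leaving out 1 of the 16 arrays ended the call of Gria1 (adjusted p = 0.051 in limma's fit). The AMPA subunit gene Gria2, not called at 0.12, was called without NAcSh replicate 2, at 0.14 (SE 0.05).

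Only 7 of 30 monoamine and acetylcholine receptor genes named on the array passed the filter on low values, and 21 stayed below 4 on all 16 arrays. Besides Drd1 and Drd2, Htr4, a serotonin receptor that raises cyclic AMP, was higher in the accumbens (1.61, SE 0.37), as were Htr1d (0.59, SE 0.13) and Htr2c (0.48, SE 0.10), other serotonin receptors. Adra2a, the alpha2A adrenergic receptor, was between 4.54 and 5.46 (median 5.19) in the accumbens and between 6.54 and 8.09 (median 7.54) in the lateral extended amygdala, a difference of -2.34 (SE 0.16, adjusted p = 1.8e-08), with a gap between the nearest arrays. Chrm3, a muscarinic receptor, differed by -0.36 (SE 0.14), a call lost on leaving out any of 12 of the 16 arrays (-0.50 to -0.30). The cholinergic interneuron genes Chat and Slc5a7, the acetylcholine-synthesizing enzyme and the choline transporter, were higher in the accumbens by 1.39 (SE 0.21) and 2.55 (SE 0.30), whereas the calretinin gene Calb2 was lower. Calb2 was between 5.59 and 7.83 (median 6.20) in the accumbens and between 8.93 and 10.07 (median 9.10) in the lateral extended amygdala, a difference of -2.75 (SE 0.19, adjusted p = 1.6e-08).

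Of 20 tested voltage-gated potassium channel genes, 11 (55%, against 19.6% of all genes) were higher in the accumbens and 7 (35%) in the lateral extended amygdala, the latter at the 34.4% of all genes. Kcnv1, a silent modifier subunit, Kcna1, the Kv1.1 channel, Kcnq5, an M-current channel, and Kcnd2, the A-type Kv4.2 channel, were higher in the accumbens by 2.24 (SE 0.32), 1.97 (SE 0.17), 1.39 (SE 0.12) and 1.32 (SE 0.08). The genes of Kv3 channels, Kcnc1 and Kcnc2, which allow fast spiking, were higher in the lateral extended amygdala, at -1.21 (SE 0.23) and -1.83 (SE 0.24). Kcnc2 in NAcSh was nearer to the amygdala, at 10.26 ± 0.85 against 7.59 ± 0.62 in NAcC and 10.82 in CeA. Kcng2, a modifier subunit, was higher in all 8 amygdala arrays, at -2.01 (SE 0.13), and Kcnip1, an A-type channel partner, differed by -1.25 (SE 0.21). Without NAcSh replicate 2, the beta subunit gene Kcnab2 was called at -0.24 (SE 0.07) and Kcnip3 was not called (0.19, SE 0.09).

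Of 8 tested protein kinase C genes, 5 (62.5%) were higher in the accumbens and 2 (25%) in the lateral extended amygdala, against 19.6% and 34.4% of all genes. Prkch, the eta isoform, differed most, at 1.71 (SE 0.18), and Prkca, the alpha isoform, by 0.78 (SE 0.13). Prkcd, the delta isoform and a marker of a class of CeA neurons, was dim, 4.63 ± 0.13 in NAcC, 4.54 ± 0.30 in NAcSh, 5.16 ± 0.11 in CeA and 4.83 ± 0.20 in dlBNST, with a difference of -0.41 (SE 0.10, adjusted p = 0.002). The other called isoforms, Prkce, Prkcz, Prkcb and Prkcq, differed by 0.48, 0.56, 0.46 and -0.43.

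Of 26 tested adhesion and guidance genes, 9 (34.6%) were higher in each territory, against 19.6% of all genes in the accumbens and 34.4% in the lateral extended amygdala. Cdh8, a cadherin, was between 7.95 and 9.19 (median 8.40) in the accumbens and between 5.46 and 7.19 (median 6.12) in the lateral extended amygdala, a difference of 2.25 (SE 0.14, adjusted p = 3.7e-09). Cdh11, the semaphorin receptor gene Plxna2 and the ephrin receptor gene Epha3 were also higher in the accumbens, by 0.87, 1.50 and 0.88. Sema3c, a secreted semaphorin, and Nrp2, a receptor for semaphorins, were higher in the lateral extended amygdala, at -2.66 (SE 0.24) and -1.90 (SE 0.18), and in both genes NAcSh lay between NAcC and the amygdala regions. Nrp2 averaged 4.94 in NAcC, 7.69 in NAcSh, 7.74 in CeA and 8.69 in dlBNST. Sema4a and the ephrin receptor gene Ephb3 differed by -0.90 and -1.05. The cadherin gene Cdh12, at -0.55 and not called, was called at -1.07 (SE 0.19) without NAcSh replicate 2, and Cdh7 was then not called (0.38, SE 0.18).

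Imprinted genes, which are expressed from 1 parental copy, were higher in the lateral extended amygdala in 7 of 12 tested (58.3%, against 34.4% of all genes), 5 of them in all 4 pairs (4 without NAcSh replicate 2), and 1 was higher in the accumbens. Gnas, which encodes the stimulatory G protein alpha subunit, was between 11.02 and 11.94 (median 11.52) in the accumbens and between 12.61 and 13.54 (median 12.99) in the lateral extended amygdala, a difference of -1.57 (SE 0.08, adjusted p = 7.2e-10). Plagl1, a zinc finger factor, Nnat, the membrane protein neuronatin, and Grb10, a growth factor receptor adaptor, differed by -1.45 (SE 0.14), -1.19 (SE 0.15) and -0.91 (SE 0.14). Mest, on the accumbens side, was higher by 0.55 (SE 0.13).

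Of 6 tested steroid receptor and enzyme genes, 1 (16.7%) was higher in the accumbens and 2 (33.3%) in the lateral extended amygdala, against 19.6% and 34.4% of all genes. Nr3c1, which encodes the glucocorticoid receptor, was 10.86 ± 0.10 in NAcC, 10.99 ± 0.03 in NAcSh, 11.21 ± 0.10 in CeA and 11.02 ± 0.17 in dlBNST. Its difference of -0.19 (SE 0.07) passed the threshold (adjusted p = 0.026 with limma), but the call was lost on leaving out any of 3 of the 16 arrays, CeA replicate 1, NAcC replicate 3 or dlBNST replicate 2 (-0.16, -0.17 and -0.15). Fkbp5, a chaperone that glucocorticoids induce, was higher in the accumbens at 1.01 (SE 0.13), with NAcC at 8.97 ± 0.11 and the other 3 regions between 7.31 and 7.99, and a second Fkbp5 probe set gave the opposite sign. Cyp19a1, which encodes aromatase, was dim and differed by -0.54 (SE 0.21), with dlBNST replicate 2 alone at 5.91, and lost the call on leaving out any of 8 arrays (-0.63 to -0.32), NAcSh replicate 2 among them (-0.53). Of the endocannabinoid genes, the lipases Mgll and Abhd6, which break down 2-arachidonoylglycerol, were higher in the accumbens by 1.72 (SE 0.14) and 0.50 (SE 0.11), opposite to the receptor gene Cnr1. These 3 were the called genes among the 4 tested, and the other, Daglb, which makes 2-arachidonoylglycerol, was called without NAcSh replicate 2, at -0.30 (SE 0.10) against -0.18 with it.

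Markers of other cell types also differed, and their part in the results above was not tested. All 12 tested oligodendrocyte and myelin genes (100%, against 34.4% of all genes) were higher in the lateral extended amygdala, with a median difference of -0.69 and 2 of them called in all 4 pairs, and the list mean ran from 7.11 to 7.82 over accumbens arrays and from 7.87 to 8.51 over amygdala arrays. Mbp, myelin basic protein, was 10.86 ± 0.28 in NAcC, 9.94 ± 0.51 in NAcSh, 11.35 ± 0.15 in CeA and 11.49 ± 0.38 in dlBNST, and the myelin genes Ermn and Mog differed by -0.92 (SE 0.19) and -0.92 (SE 0.22). Of 10 tested astrocyte genes, 6 (60%, against 34.4% of all genes) were higher in the lateral extended amygdala and 1 in the accumbens, and the list mean was 9.32 to 9.79 against 10.11 to 10.26. Agt, which encodes angiotensinogen, Gfap, the astrocyte filament protein, and Gjb6, connexin 30, differed by -2.48 (SE 0.20), -1.68 (SE 0.28) and -0.77 (SE 0.15). Slc1a2, an astrocyte glutamate transporter and the 1 gene called on the accumbens side, at 0.35, was not called without NAcSh replicate 2 (0.27, SE 0.12).

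Among microglia genes, 4 of 5 tested (80%, against 34.4% of all genes) were higher in the lateral extended amygdala, 1 of them in all 4 pairs. C1qa, Csf1r and Tmem119 differed by -0.60, -0.56 and -0.44. The mean over the 11 genes of the list, 6 of them below 4 on all 16 arrays, was 4.67 to 4.96 against 5.08 to 5.26. Slc17a6, the vesicular glutamate transporter of diencephalic neurons, averaged 2.64 in NAcC and was 7.67 in NAcSh replicate 2 and 9.06 in dlBNST replicate 2, against 4.45 to 5.62 in the other NAcSh, CeA and dlBNST arrays. The difference of -1.43 (SE 0.59) was not called without dlBNST replicate 2 (-0.90, adjusted p = 0.062), and the call was lost on leaving out any of 13 of the 16 arrays (-1.81 to -0.90). Ttr, the choroid plexus transthyretin, was 8.56 ± 1.61 in dlBNST and between 4.54 and 5.36 on average elsewhere, and Enpp2 and Drc12 of the same list differed by -0.48 and 0.71. Of the cortical list, 3 of 11 genes were tested, with Emx2 at 2.52 (SE 0.14) and Nptx1 at -0.75 (SE 0.22), and 5 of the list were below 4 on all 16 arrays. Emx2 was between 6.76 and 7.82 (median 7.13) in the accumbens and averaged 5.99 in CeA and 3.30 in dlBNST. Vascular genes showed small differences, with Abcb1a, Slco1c1 and Myl9 at 0.45, 0.38 and -0.53, and a second Abcb1a probe set had the opposite sign. Neither the dopamine neuron list nor the blood list had a called gene, with 1 gene tested of each, but the dopamine neuron gene tested, Aldh1a1, was called without NAcSh replicate 2, as given above.

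The size of the difference depended on which regions were paired. In naive rats, 841 genes (9.77%) differed by more than 1 between NAcC and CeA, 916 (10.6%) between NAcC and dlBNST, 625 (7.26%) between NAcSh and CeA and 699 (8.12%) between NAcSh and dlBNST, all at an adjusted p of 0.05. Within a territory such genes numbered 248 (2.88%) for NAcC against NAcSh and 234 (2.72%) for CeA against dlBNST. The median absolute difference over all genes was 0.31, 0.32, 0.28 and 0.32 for the 4 cross pairs, 0.18 within the accumbens and 0.25 within the lateral extended amygdala. Of the 807 genes higher in the lateral extended amygdala in all 4 pairs, 83 (10.3%) were higher in NAcSh than in NAcC and 19 (2.35%) were lower, against 6.68% and 7.6% of all genes. These counts too include NAcSh replicate 2, and the 807 genes were chosen on the same values.

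Levels in the other 4 naive regions placed the vBNST with the lateral extended amygdala. Of the 475 genes higher in the accumbens in all 4 pairs, the vBNST mean was closer to the amygdala mean for 93.3%, against 71.7% of all genes tested, and for the 807 genes higher in the lateral extended amygdala the share was 86.6%. For the medial prefrontal cortex (mPFC), BLA and ventral tegmental area (VTA), the accumbens-high genes were closer to the amygdala mean in 64.2%, 63.8% and 82.9% of cases, against 54.9%, 50.7% and 64.6% of all genes. For the amygdala-high genes these shares were 54.5%, 46.2% and 71.4%, so that mPFC was near the share of all genes and BLA was below it. These shares are descriptions, since the 4 regions played no part in the choice of genes but share the array and its normalization.

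Single genes show that neither territory holds its genes alone. Ppp1r1b was 9.02 ± 0.46 in mPFC, close to NAcSh at 9.46 ± 0.77 (SD, n = 4), and Npy was 10.06 in mPFC and 9.19 in BLA. Crh was 7.04 ± 1.12 in vBNST, below CeA and dlBNST, and 3.79 in BLA. Gal was highest of all 8 regions in vBNST, at 8.72 ± 0.78, and Nr2f2 was higher in BLA (12.18 ± 0.33) and vBNST (11.46 ± 0.44) than in either amygdala region compared here. By contrast, the 2 accumbens regions were the highest of the 8 for Adora2a, Drd1, Tac1, Rarb, Pde10a and Foxp1.

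**Figure D4:**
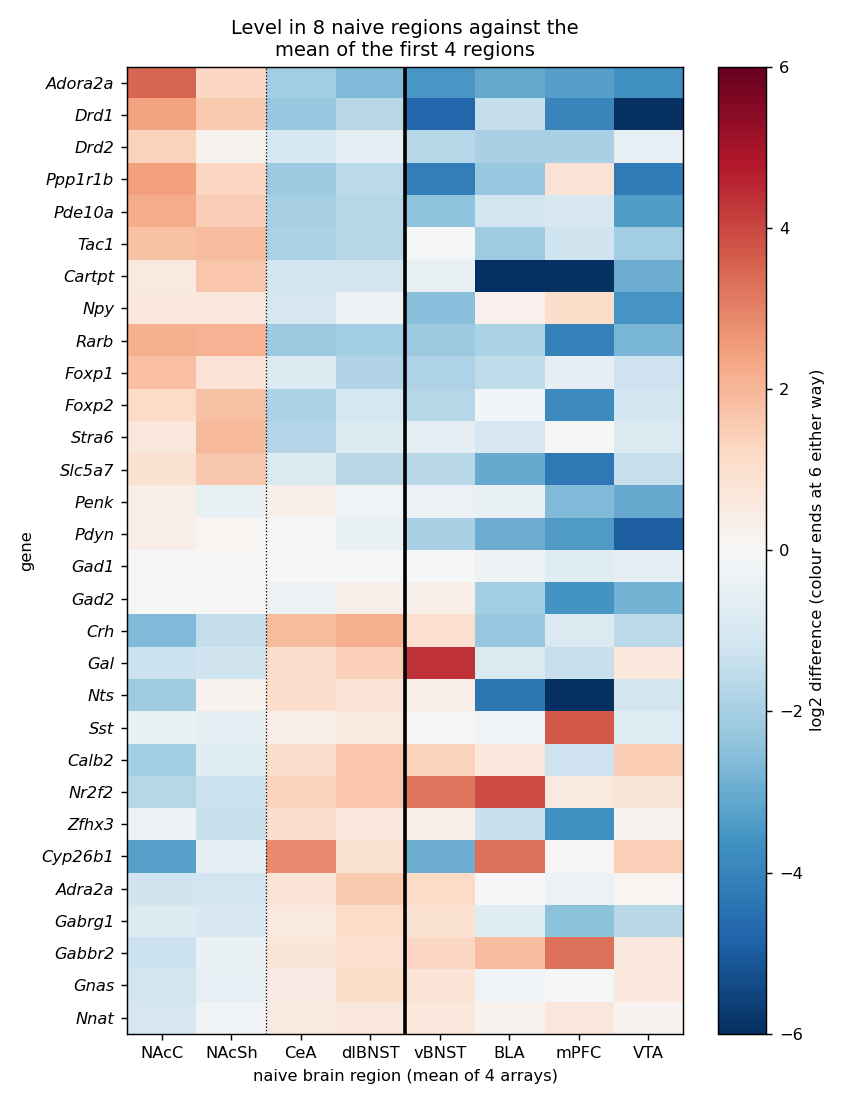
Mean log2 level of 30 genes in 8 naive regions, drawn as the difference from the mean of NAcC, NAcSh, CeA and dlBNST, with each cell a mean of 4 arrays and colours ending at 6 in either direction. Adora2a, Drd1 and Rarb are red in NAcC and NAcSh alone, Npy and Ppp1r1b are red in mPFC too, and Nr2f2 and Gal are darkest in regions outside the 4 compared.

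The same contrast was then taken in the rats that drank, which share no arrays with the naive rats. In dependent rats, 1254 genes (14.7%) were higher in the accumbens and 2523 (29.5%) in the lateral extended amygdala. Of the 475 genes higher in the naive accumbens in all 4 pairs, 474 were tested there, 472 had the same sign and 428 were called, and of the 807 genes on the other side, 791 were tested, 787 had the same sign and 714 were called. No gene of either set was called in the opposite direction. In non-dependent rats, 520 genes (6.02%) and 496 (5.74%) were called with all arrays, and 1676 (19.5%) and 3016 (35.1%) without CeA replicate 2 of that group, an array that stands apart from the rest of the series. Its best correlation with another array was 0.345, against 0.995 to 0.996 for the other non-dependent CeA arrays. Its Gapdh 3′ control was at 5.25 against 9.96 to 10.23, and its mean of 18 bacterial controls at 14.31 against 9.64 to 10.29. Without this array, all 475 accumbens genes kept their sign and 473 were called, and 781 of 797 tested amygdala genes were called.

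The leading genes differed in the same direction in the 3 groups. Drd1 differed by 3.97 in naive, 4.28 (SE 0.24) in non-dependent without that array and 4.32 (SE 0.28) in dependent rats. Adora2a differed by 4.75, 4.63 and 4.57, Rarb by 4.21, 4.28 and 4.33, and Ppp1r1b by 3.78, 3.27 and 2.95 in the same order. On the amygdala side Crh differed by -4.09, -4.76 and -5.04, Nr2f2 by -2.98, -3.27 and -3.25, and Gal by -2.47, -2.05 and -1.56. Gad1 was not called in dependent rats either, at 0.06 (SE 0.08), nor was Penk, at -0.06 (SE 0.12).

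Whether drinking history changed the difference itself was tested as an interaction over the 48 arrays of the 4 regions. With all arrays, limma called 0 genes for dependent against naive rats and 0 for non-dependent against naive rats, with 217 (2.52%) and 195 (2.26%) at an unadjusted p of 0.05. Without the non-dependent CeA array that stands apart, which enters this contrast only through the estimate of the spread and the filter on dim genes, 24 genes (0.279%) were called for dependent against naive rats and 0 for non-dependent against naive. A fit on the 32 naive and dependent arrays alone called 21 genes, 17 of the 24 among them. The 3 arrays highest in cortical markers were NAcSh naive replicate 2, NAcSh dependent replicate 3 and the CeA array. Because the best correlation of the CeA array with another array was 0.345, its marker mean of 4.91 is not read as cortical content. Leaving out these 3 arrays gave 16 genes, of which 15 were among the 24.

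Abtb3 was the only one of these among the 15 leading genes of either direction. Its naive difference of -3.08 was -2.10 (SE 0.17) in dependent rats, a change of 0.98 (SE 0.21, adjusted p = 0.024 in limma's fit without the CeA array). In means, NAcC went from 5.08 to 5.74 and NAcSh from 6.37 to 7.18, while CeA stayed at 8.65 and 8.56 and dlBNST moved from 8.95 to 8.55. Icoslg, an immune costimulatory ligand, lost its naive difference of -0.96, which was -0.08 in dependent rats, with the dlBNST mean at 5.63 in naive and 4.35 in dependent rats. Sobp, a nuclear protein, went from -0.29 to -1.03, and Rreb1, a Ras-responsive zinc finger factor, from 1.17 to 2.16, with NAcSh at 7.44 in naive and 9.10 in dependent rats. Phc1, a Polycomb protein, changed sign from -0.29 to 0.38, but it was dim, with region means around the filter of 4. Its means in NAcC, NAcSh, CeA and dlBNST were 3.82, 3.95, 3.91 and 4.43 in naive rats. In dependent rats they were 4.04, 4.70, 3.92 and 4.08. Gusb, the lysosomal beta-glucuronidase, went from -0.86 to -0.23. Gusb was not called on the naive and dependent arrays alone (adjusted p = 0.051 with limma) or without the 3 arrays (adjusted p = 0.077), whereas the others named here were called in both fits. Rreb1 was chosen after its value was seen. For non-dependent against naive rats the smallest p-values belonged to Gpc6, Cpt1a and Gusb, with changes of 0.65, 0.62 and 0.73 at an adjusted p of 0.59 in limma's fit of all 48 arrays. That fit holds the CeA array that stands apart. Without it, the non-dependent differences of Gpc6, Cpt1a and Gusb were 1.17, -0.05 and -0.36, against 0.63, -0.66 and -0.86 in naive rats.

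**Figure D5:**
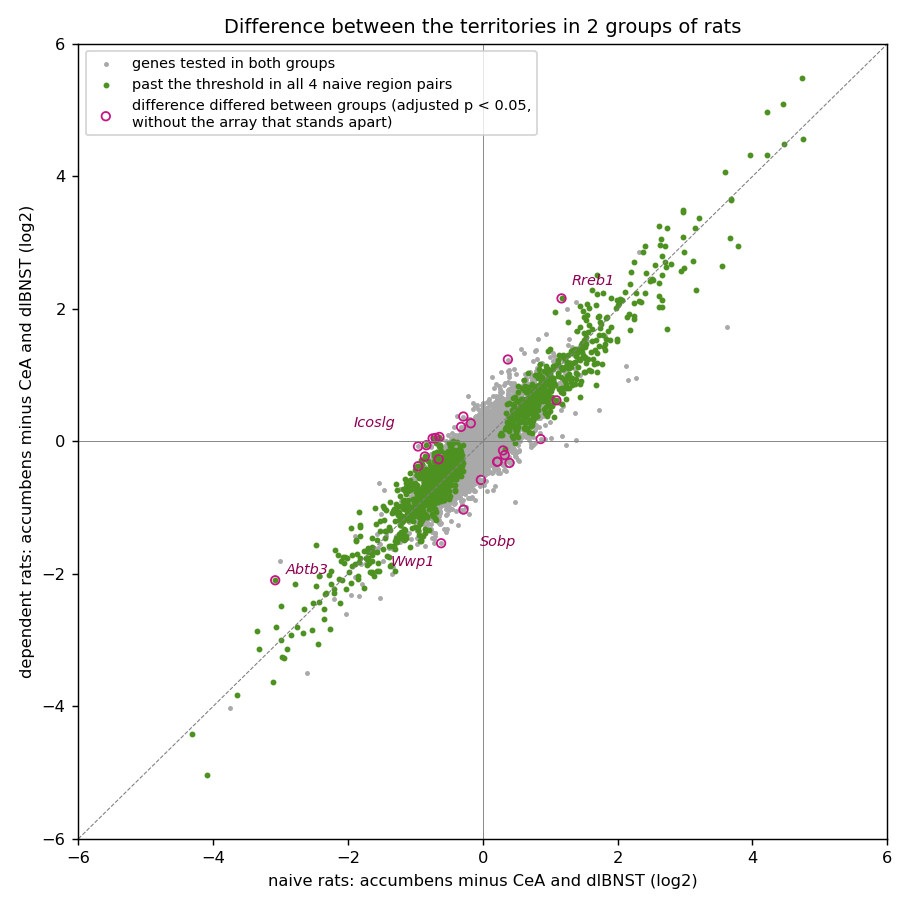
Accumbens minus lateral extended amygdala difference (log2) of each gene in naive rats (horizontal) and in dependent rats (vertical), with genes called in all 4 naive region pairs in green. Rings mark genes whose difference was called as changed without the non-dependent CeA array that stands apart. With all arrays 0 genes were called. Points follow the dashed line of equal differences, and the ringed genes lie off it, which follows from their choice.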

How the data were processed

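Microdissected brain tissue was extracted, and total RNA (30 or 50 ng, by region) was amplified and labelled with biotin for the Affymetrix array. The values are log2 signals as deposited by the authors, with background correction, normalization and summarization by GCRMA 2.36.0 in R 3.03 per the submitters' processing notes. Arrays carry no read depth, so the 4 arrays per region and group limit the precision, and GCRMA compresses dim signals.

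Groups were taken from the labels, and 0 columns lacked a sample. Of 31099 probe sets, 20832 had 1 gene symbol in the platform annotation, 436 several and 9831 none. A gene with several probe sets was read from its brightest, by mean over all 96 arrays, which left 14218 genes, and genes with a mean above 4 over the 16 arrays were tested. Contrasts of region means were fitted with limma 3.58.1 (lmFit and eBayes) in R 4.3.3, with figures from Python 3.11.15, and the script was tested on simulated data.

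Named genes were, in each direction, up to 15 with the largest difference among those called in all 4 pairs with arrays apart, up to 4 per gene list and direction, a set of well-known genes whatever their values, up to 3 per cell type list and up to 3 per interaction. Members and lists were chosen with earlier results of these data known. Alternatives covered the filter, normalization, choice of probe set, array weights, a replicate block, region pairs and leaving out single arrays. Fits that leave out the 3 arrays highest in cortical markers, or use the naive and dependent arrays alone, were chosen after seeing the data.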

Additional observations from a re-analysis of the deposited data

Results flagged for a closer look

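Single arrays were flagged in 36 of 576 groups of 4 (6.25%), over 30 named genes, where chance flags about 1 in 20. A flag weighs the gap between an array and the nearest of the other 3 against the range of the 4. It therefore does not measure how far the array lay from the others. The range was over 1 in 16 of the 36 flags. Scn4b in dlBNST replicate 4, for example, was flagged at 7.482 against 7.24 to 7.255. NAcSh naive replicate 2 accounted for 12 of them. It was high for Chrm3 (5.23), Etv1 (12.91), Gabbr1 (12.004), Kcnc1 (7.87), Slc17a6 (7.67) and Sstr1 (9.31). It was low for Foxp2 (10.48), Gad2 (6.95), Gpr149 (8.79), Pbx3 (10.87), Slc5a7 (8.93) and Tshz1 (11.03). The same array was flagged in the mean of the cortical glutamatergic markers (6.41) and of the cholinergic and pallidal markers (4.72). It was also flagged in the mean of the astrocyte markers (9.79) and of the microglia markers (4.67). The part of the cortical marker signal in these values was not tested.

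dlBNST naive replicate 2 accounted for 6, namely Csf1r (6.58), Cyp19a1 (5.91), Nr2f2 (10.81), Phc1 (4.21), Ppp1r1b (6.11) and Slc17a6 (9.06). In NAcC, replicate 1 was flagged for Gpc6 (5.75), Grin3a (3.82), Grm3 (11.80) and Scn4b (12.001). NAcC replicate 3 was flagged for Abhd6 (11.14), Foxp2 (10.26) and Npy1r (5.09), and replicate 4 for Ppp1r1b (11.41). In CeA, replicate 1 was flagged for Abcb1a (7.24) and Ubash3b (9.67). CeA replicate 2 was flagged for Foxp2 (6.94), Grik1 (5.86) and Sema4a (9.48), and replicate 4 for Rarb (6.67). The remaining flags were NAcSh replicate 1 for Tmem119 (4.44), replicate 3 for Grin3a (4.43) and replicate 4 for Agt (7.61). The last was dlBNST replicate 4 for Scn4b (7.48). Among marker lists, the dopamine neuron mean was flagged in dlBNST replicate 4 (3.61) and the cholinergic and pallidal mean in NAcC replicate 1 (5.24).

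The territory difference of 5 named genes differed between dependent and naive rats in limma's interaction test without the non-dependent CeA array that stands apart. The change was 0.89 for Icoslg (adjusted p = 0.0057), -0.74 for Sobp (0.0057), 0.98 for Abtb3 (0.024), 0.63 for Gusb (0.027) and 0.66 for Phc1 (0.032). With all 48 arrays none of the 5 was called, and Gusb was not called on naive and dependent arrays alone (adjusted p = 0.051 with limma).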

How the results depend on the processing

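Counts of calls in naive rats stayed within 1.5 times of the values reported under every alternative run, except that median scaling gave 520 genes higher in the lateral extended amygdala in all 4 pairs and regions as units gave 86 and 80 genes. Leaving out single arrays gave 1556 to 1797 genes higher in the accumbens, 2742 to 2968 higher in the lateral extended amygdala, and 404 to 528 and 698 to 855 in all 4 pairs. The same ranges were 397 to 1676 and 375 to 3016 in non-dependent rats, where CeA replicate 2 decides both upper ends, and 1146 to 1306 and 2287 to 2575 in dependent rats. For the interactions they were 0 to 24 genes (dependent) and 0 to 0 (non-dependent).

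In non-dependent rats, accumbens and lateral extended amygdala counts were 219 and 97 with a mean above 6, 1733 and 3126 with array weights, 1676 and 3016 without the array that stands apart, 0 and 0 with regions as units (limma, with 520 and 496 from single arrays), and 303 and 87 for NAcSh against CeA. The lateral extended amygdala count was 897 with no filter and 153 for NAcC against CeA, and the accumbens count was 832 after median scaling, 243 for NAcC against dlBNST and 196 for NAcSh against dlBNST. In dependent rats the counts were 169 and 224 with regions as units, the lateral extended amygdala count was 1641 with a mean above 6, 1594 after median scaling and 1498 for NAcSh against CeA, and the accumbens count was 835 for NAcSh against dlBNST. The dependent interaction gave 73 genes with array weights, 24 without the array that stands apart, 21 on naive and dependent arrays alone and 16 without the 3 arrays highest in cortical markers. The cause was not tested.

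Signs reversed for Gad1 (0.0463 after quantile normalization, 0.0545 after median scaling, 0.0512 with the mean of probe sets, 0.0062 for NAcSh against dlBNST) and Penk (0.0166 after median scaling, 0.0297 for NAcC against CeA, 0.61 for NAcC against dlBNST). By region pair they reversed for NAcC against CeA in Ebf1 (0.31) and Slc32a1 (0.11), and for NAcC against dlBNST in Ebf1 (0.0537), Gabra5 (-0.12), Gad2 (-0.29) and Gapdh (-0.43). For NAcSh against CeA they reversed in Chrm3 (0.13), Grik1 (0.20), Grin3a (0.32), Phc1 (0.0319), Prkcq (0.0743), Slc17a6 (0.35) and Slco1c1 (-0.20), and for NAcSh against dlBNST in Gad2 (-0.28), Gapdh (-0.73), Htr1d (-0.11) and Prkcz (-0.0918). Leaving out single arrays gave Gad2 values of -0.0349 to 0.2323, the upper end without NAcSh replicate 2, and 5 of these values were negative.

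Replicate numbers were checked for pairing by the correlation of deviations from the region means. Among NAcC, CeA and dlBNST, 11 of 12 same-number pairs were over 0.1 (0.0746 to 0.34) and in 11 the closest array bore the same number, whereas for NAcSh with the other regions 2 of 12 were over 0.1 (-0.24 to 0.13) and 0 were closest. The labels tie the numbers neither to rats nor to the handling of the arrays, and the source of these correlations was not tested. The arrays were not treated as paired. With a fixed replicate block, 1679 and 2938 genes were called, and with a random block 1688 and 2959.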
